A study of Mus musculus with 12 samples.

Results

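The genes examined encode subunits and assembly factors of mitochondrial complex I (NADH:ubiquinone oxidoreductase), and were chosen as all genes whose symbol on the array starts with Nduf. The array names 44 such genes through 68 probes, and 42 of them, read by 61 probes, passed the detection filter, out of 10142 genes tested. Ndufs1, which encodes the largest iron-sulfur subunit, and Ndufaf6, an assembly factor, were detected on 0 of the 12 arrays and have no further values here. Ndufs5 and Ndufb1 were not analysed here. Of the 42 tested genes 41 were detected on every array, and Ndufb11 on 10.

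Complex I is the entry point of the respiratory chain: it oxidises NADH in the mitochondrial matrix, passes the electrons through a flavin and a row of iron-sulfur clusters to ubiquinone, and pumps protons across the inner membrane. A core that is conserved from bacteria carries the chemistry, partly encoded by nuclear genes (Ndufs and Ndufv symbols) and partly by mitochondrial DNA, while accessory subunits (mostly Ndufa, Ndufb and Ndufc symbols) surround it, and assembly factors (Ndufaf) build the complex without staying in it. Fibroblasts in culture use the complex for respiration and for reoxidising NADH, and polycyclic aromatic hydrocarbons such as DMBA are known to act through the aryl hydrocarbon receptor and through DNA adducts.

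Expression was measured by bead array in mouse embryonic fibroblasts (MEFs) taken from mid-gestation embryos on a C57BL6/129Sv background. The cells lacked Trex1 (TKO, Trex1 -/- with Sting +/+), lacked STING (SKO, Sting -/- with Trex1 +/+), lacked both (STKO) or carried both genes intact (WT). TREX1 is a DNA exonuclease of the cytosol and STING the adaptor of the cytosolic DNA sensor cGAS. Each genotype was exposed to 20 µg/ml DMBA (7,12-dimethylbenz[a]anthracene, a carcinogen that damages DNA) for 24 h or for 48 h, or to the solvent DMSO, and there was 1 array for each genotype and treatment. A treatment difference therefore rests on n = 4 genotypes, and a single array has no replicate. The culture time of the DMSO samples is not stated, and an effect of DMBA therefore cannot be told apart from one of time in culture. Nothing in the labels ties arrays to separate embryos or dishes, and p-values accordingly reflect only the spread between these arrays, which may be technical. For a treatment difference this is the spread of the response between genotypes, so it may also hold real differences in response.

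Between 15662 and 16824 probes were detected per array. Sting1 read 5.06 to 6.01 (log2 intensity) on the SKO and STKO arrays, against 7.80 to 8.12 on the TKO and WT arrays, and Trex1 read 6.22 to 7.19 on the TKO and STKO arrays, against 8.12 to 9.46 on the SKO and WT arrays. All 10 fibroblast markers were detected on every array, and 5 of them fell at 48 h. The summed log2 level of those markers was 116 to 117 per array with DMSO, 108 to 116 at 24 h and 108 to 115 at 48 h. Of 11 macrophage markers 8 were tested, 2 rose and 6 fell at 48 h, and their summed log2 level was 63.4 to 85.0 with DMSO, 55.1 to 75.2 at 24 h and 56.8 to 73.9 at 48 h. The part of these marker shifts in the complex I values was not tested. In cultures read as a whole, fewer cells of a type and less RNA per cell cannot be told apart.

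After 48 h of DMBA the complex I genes moved in both directions: 7 rose and 4 fell. The genes that rose were Ndufb2, Ndufb6, Ndufb3, Ndufa7, Ndufa4, Ndufa11 and Ndufa1, all accessory by symbol, by 0.30 to 0.63 on the log2 scale. The genes that fell were Ndufaf5, Ndufs4, Ndufb8 and Ndufs6, by 0.28 to 0.46. A call is an adjusted p under 0.05 by limma, with Benjamini-Hochberg adjustment over all tested probes. The 11 calls are 26.2% of the 42 genes, against 41.1% of all tested genes (19.2% higher and 21.9% lower), so the share called was below that of the array. The median difference of the 42 genes was 0.03, against -0.02 over all genes, and their median absolute difference was 0.25, against 0.32.

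**Figure D1:**
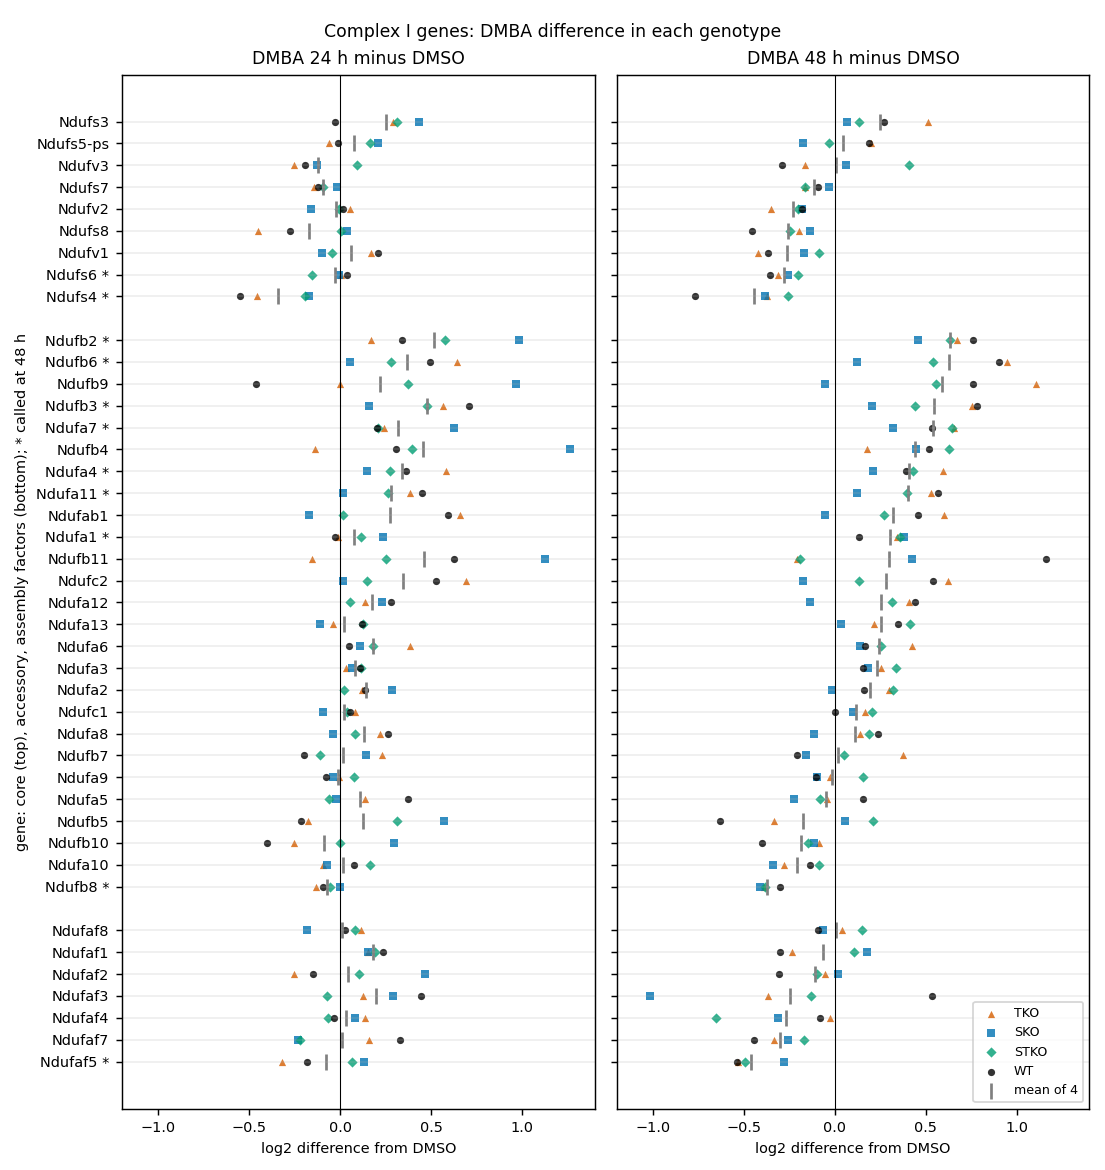
Log2 difference from DMSO of each complex I gene at 24 h (left) and 48 h (right), with 1 symbol per genotype and a bar at the mean of the 4 genotypes. At 48 h most accessory genes lie right of 0 and most core and assembly genes left of it, and the SKO squares of several accessory genes lie near 0.

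The largest rises at 48 h were in the membrane arm, where the Ndufb subunits surround the proton-pumping core. Ndufb2 read 9.67, 9.17, 9.52 and 9.72 after 48 h of DMBA in TKO, SKO, STKO and WT cells, against 9.00, 8.71, 8.89 and 8.96 with DMSO in the same order. Every 48 h value lay above every DMSO value. The mean rise was 0.63 ± 0.16 (limma standard error, n = 4 genotypes, adjusted p = 0.0114). Ndufb6 read 14.27 in TKO, 13.34 in SKO, 13.83 in STKO and 14.23 in WT cells at 48 h, against 13.32, 13.22, 13.29 and 13.33 with DMSO. The groups again did not overlap, but the rise was 0.95 in TKO and 0.90 in WT cells and 0.12 in SKO cells, with a mean of 0.63 ± 0.14 (limma, adjusted p = 0.00592). Ndufb3, a small subunit at the tip of the membrane arm, read 11.41, 11.12, 11.27 and 11.43 at 48 h, against 10.66, 10.92, 10.83 and 10.65 with DMSO in TKO, SKO, STKO and WT cells. Its rise of 0.55 ± 0.12 had the lowest adjusted p of the family (limma, adjusted p = 0.00584).

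Ndufa7 belongs to the matrix arm, which holds the flavin and the iron-sulfur clusters. It read 13.48, 13.20, 13.61 and 13.41 at 48 h in TKO, SKO, STKO and WT cells, against 12.82, 12.88, 12.96 and 12.88 with DMSO, a rise of 0.54 ± 0.13 (limma, adjusted p = 0.00936). Ndufa4, a small protein first described in complex I and now assigned to complex IV, read 14.14, 13.86, 14.07 and 14.11, against 13.54, 13.65, 13.64 and 13.72 with DMSO. It rose by 0.41 ± 0.10 (limma, adjusted p = 0.0114). Neither gene's groups overlapped. Ndufa11, a membrane subunit, rose by 0.40 ± 0.11 (limma, adjusted p = 0.0139), with 11.85, 11.47, 11.77 and 11.79 at 48 h, against 11.33, 11.35, 11.37 and 11.22 with DMSO. Ndufa1, an X-linked single-pass membrane subunit needed for assembly, rose by 0.30 ± 0.10 (limma, adjusted p = 0.0317), with 13.53, 13.48, 13.43 and 13.34 at 48 h, against 13.19, 13.10, 13.07 and 13.21 with DMSO. Its groups did not overlap either, and its gain in WT cells was 0.13 where the other genotypes gained 0.34 to 0.38.

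**Figure D2:**
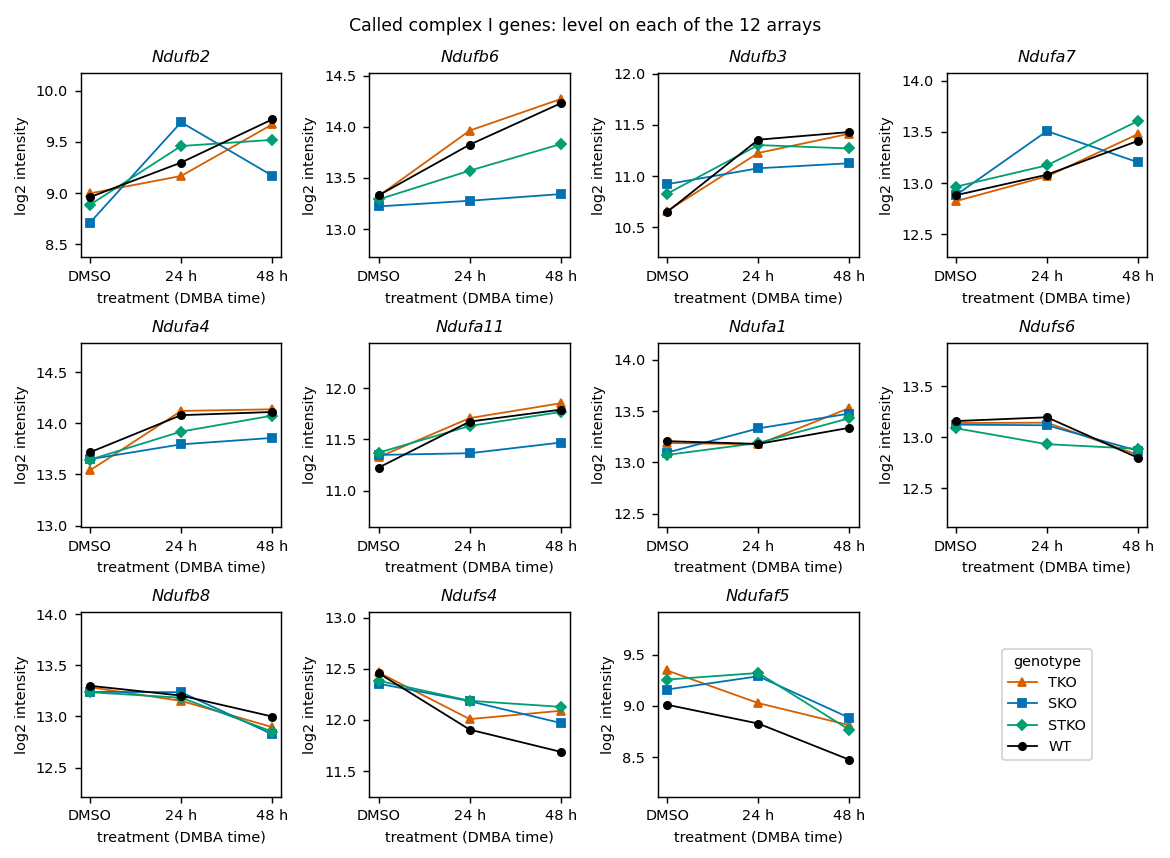
Log2 intensity of the 11 called genes on each of the 12 arrays, by treatment, with 1 line per genotype. The 7 genes that rose start with Ndufb2 and end with Ndufa1, the 4 that fell start with Ndufs6, and in each panel every 48 h point lies on one side of every DMSO point.

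The 4 genes that fell encode an assembly factor (Ndufaf5), subunits of the matrix arm (Ndufs4 and Ndufs6) and a membrane-arm subunit (Ndufb8). Ndufaf5 encodes an enzyme that hydroxylates the core subunit Ndufs7 during assembly. It read 8.81, 8.88, 8.77 and 8.47 at 48 h in TKO, SKO, STKO and WT cells, against 9.35, 9.16, 9.26 and 9.01 with DMSO. The groups did not overlap, and the fall was -0.46 ± 0.11 (limma, adjusted p = 0.00762). Ndufs4, an accessory subunit of the matrix arm whose loss causes a Leigh-like encephalopathy in mice, read 12.09, 11.97, 12.13 and 11.69, against 12.46, 12.35, 12.38 and 12.46 with DMSO. WT cells had the lowest 48 h value and the largest difference, -0.77, where the other genotypes had -0.26 to -0.38, and the mean was -0.45 ± 0.11 (limma, adjusted p = 0.0116).

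Ndufb8, a membrane-arm subunit often used as a protein marker of the assembled complex, read 12.89, 12.83, 12.85 and 12.998 at 48 h in TKO, SKO, STKO and WT cells, against 13.29, 13.24, 13.24 and 13.30 with DMSO. The 4 differences were close together, -0.30 to -0.41, with a mean of -0.37 ± 0.09 (limma, adjusted p = 0.00932). Ndufs6, a zinc-binding subunit of the matrix arm, read 12.83, 12.87, 12.89 and 12.80, against 13.14, 13.12, 13.09 and 13.16 with DMSO, and fell by 0.28 on average (standard error 0.10, limma, adjusted p = 0.0408). The 48 h values of both genes lay below all their DMSO values.

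These calls rest on few arrays. Without WT cells 4 of the 42 genes were called at 48 h, without STKO cells 4 and without TKO cells 5, while without SKO cells 15 were called. Ndufb3 and Ndufb6 were called in all 4 of those fits. The share of all probes called in those fits is not given here. The counts are therefore not read as an effect of any genotype on the complex I genes.

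Several of the falls were seen by 1 probe of the gene and not by another. Of the 42 genes 14 had more than 1 tested probe, and for 6 of these (Ndufa5, Ndufb10, Ndufb8, Ndufs4, Ndufs6 and Ndufv3) the probes differed in sign at 48 h. Ndufs4 has 4 tested probes, and the 3 dimmer ones gave 0.06 ± 0.15, -0.20 ± 0.19 and -0.09 ± 0.14, none called (limma, adjusted p = 0.765, 0.442 and 0.650). The second probe of Ndufb8 gave 0.19 ± 0.12 (limma, adjusted p = 0.244) and that of Ndufs6 0.01 ± 0.11 (limma, adjusted p = 0.944). With all detected probes of a gene averaged, these 3 genes were no longer called, at -0.17, -0.09 and -0.13 for Ndufs4, Ndufb8 and Ndufs6 (limma, adjusted p = 0.364, 0.413 and 0.252). Both probes of Ndufaf5 gave -0.46, and the second was not called (limma, adjusted p = 0.0559). The second probe of Ndufb6 gave 0.73 ± 0.29 (limma, adjusted p = 0.0739), on the same side as the first. Ndufb2, Ndufb3, Ndufa7, Ndufa4, Ndufa11 and Ndufa1 have a single tested probe each, so their rises could not be compared between probes.

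**Figure D3:**
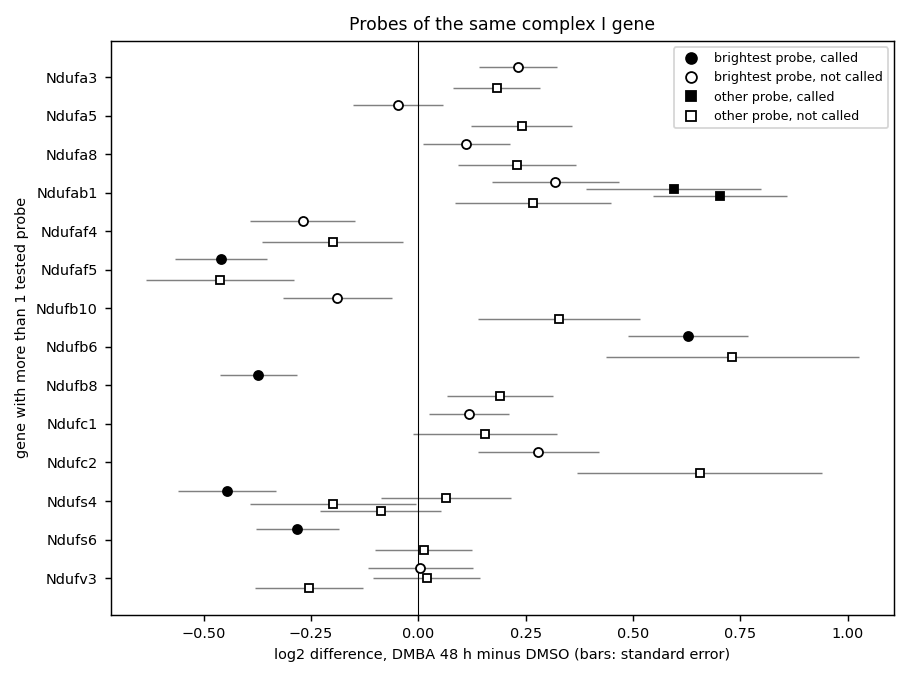
Log2 difference, DMBA 48 h minus DMSO, of every tested probe of the 14 complex I genes with more than 1 probe, with limma standard errors as bars. Circles are the brightest probe and squares the others, filled where called, and the Ndufb8 and Ndufs4 probes lie on both sides of 0.

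Ndufab1, the mitochondrial acyl carrier protein that also serves fatty acid synthesis, showed the opposite arrangement. Its brightest probe gave 0.32 ± 0.15 at 48 h and was not called (limma, adjusted p = 0.115), while 2 of its 3 other probes were, at 0.59 ± 0.20 and 0.70 ± 0.16 (limma, adjusted p = 0.0410 and 0.00604).

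Grouped by symbol, 7 of 26 accessory genes rose at 48 h and 1 fell, with a median difference of 0.25. Of the 9 Ndufs and Ndufv genes 0 rose and 2 fell, with a median of -0.23, and of the 7 Ndufaf genes 0 rose and 1 fell, with a median of -0.25. The accessory genes that rose are 26.9% of their class, against 19.2% of all genes, and the 1 that fell is 3.85%, against 21.9%. Of the Ndufs and Ndufv genes 0% rose and 22.2% fell, and of the Ndufaf genes 0% and 14.3%, against the same 19.2% and 21.9%. The share of accessory genes that fell, and those of both other classes that rose, lie below the array's. The classes are small, and the difference between them was not tested. Both Ndufs genes that fell, Ndufs4 and Ndufs6, are accessory subunits by role despite their symbol. Sorted by role, 7 of 29 accessory genes rose (24.1%) and 3 fell (10.3%), with a median difference of 0.24. The 9 Ndufs and Ndufv genes also include the pseudogene Ndufs5-ps.

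None of the 5 core subunits by role that were tested was called at 48 h. Of the 5, 4 lay below DMSO without overlap (80%, against 18.7% of all genes), and this share was not tested. Those 4 carry the redox chemistry. Ndufv1 binds NADH and the flavin, and read 11.95, 12.23, 12.19 and 11.97 at 48 h in TKO, SKO, STKO and WT cells, against 12.37, 12.40, 12.28 and 12.34 with DMSO, a difference of -0.26 ± 0.12 (limma, adjusted p = 0.113). Ndufs8, which holds iron-sulfur clusters near the ubiquinone site, had 11.94, 11.89, 11.77 and 11.58, against 12.14, 12.03, 12.01 and 12.04 with DMSO, a difference of -0.26 ± 0.12 (limma, adjusted p = 0.107). Its lowest value was in WT cells.

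Ndufv2, an iron-sulfur subunit next to Ndufv1, differed by -0.23 ± 0.10 (limma, adjusted p = 0.0865), with 12.45 to 12.62 at 48 h and 12.71 to 12.81 with DMSO. Ndufs7, which holds the last cluster before ubiquinone, differed by -0.11 ± 0.09 (limma, adjusted p = 0.339), with 12.23 to 12.34 and 12.38 to 12.45. Ndufs3, a scaffold subunit of the matrix arm, lay on the other side, at 0.25 ± 0.13 (limma, adjusted p = 0.156), and its groups overlapped. Ndufs5-ps is named as a pseudogene of Ndufs5, so its probe may also read the parent gene. It gave 0.04 ± 0.12 (limma, adjusted p = 0.802).

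Over all 42 genes, 10 lay above DMSO and 10 below without overlap at 48 h, together 47.6%, against 16.8% above and 18.7% below over all genes. Besides those already described, Ndufa3, Ndufb4 and Ndufc1 lay above, and Ndufa10 and Ndufaf7 below, none of them called. Ndufaf7, a methyltransferase needed for assembly, read 8.38, 8.43, 8.49 and 8.18 at 48 h in TKO, SKO, STKO and WT cells, against 8.71, 8.69, 8.66 and 8.62 with DMSO (difference -0.30 ± 0.14, limma, adjusted p = 0.118). Ndufaf4, a partner of Ndufaf3 in building the matrix arm, differed by -0.27 ± 0.12 (limma, adjusted p = 0.108), with -0.65 in STKO cells and -0.03 in TKO cells. Ndufaf3 itself was dim and variable, with -1.02 in SKO and 0.53 in WT cells. Ndufaf1, Ndufaf2 and Ndufaf8 differed by -0.06, -0.11 and 0.01.

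The other accessory genes that were not called spread from -0.21 to 0.59 at 48 h. Ndufb9 was the highest of them, at 0.59 ± 0.30 (limma, adjusted p = 0.150): it read 10.98, 10.18, 10.78 and 10.92 at 48 h in TKO, SKO, STKO and WT cells, against 9.87, 10.23, 10.22 and 10.17 with DMSO. SKO cells differed by -0.05 and the other 3 genotypes by 0.56 to 1.11. On the brightest probes the same arrangement, with SKO below its DMSO value and the other genotypes above, held for Ndufa12 (-0.14 in SKO, against 0.32 to 0.44), Ndufc2 (-0.17, against 0.13 to 0.62), Ndufa2, Ndufa8 and Ndufab1. For Ndufa2 the SKO values were close, 12.93 at 48 h against 12.95 with DMSO. The second probe of Ndufc2 rose in SKO cells, from 7.09 to 7.45. So did 2 further probes of Ndufab1, from 11.87 to 12.02 and from 11.56 to 11.73, while its last probe fell from 7.41 to 7.30.

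**Figure D4:**
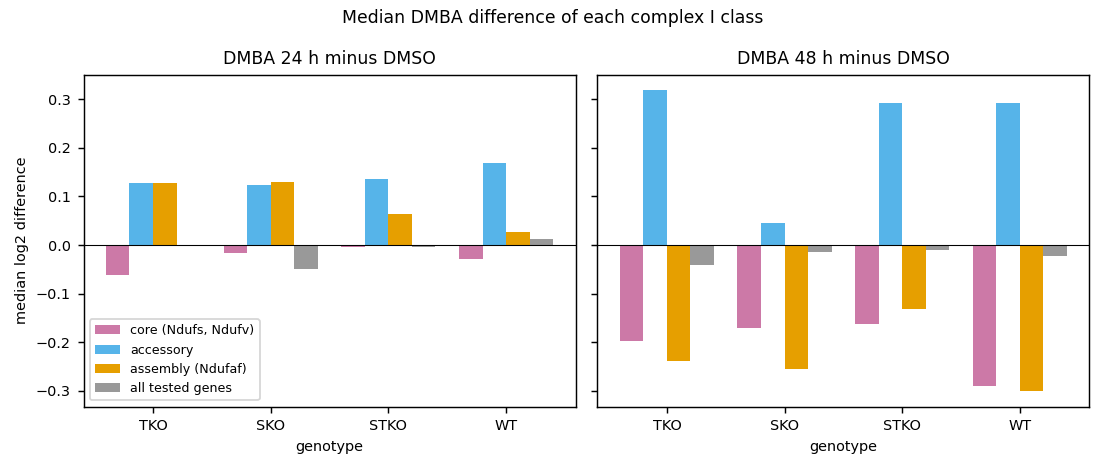
Median log2 difference from DMSO of the 9 core, 26 accessory and 7 assembly genes, by symbol, and of all tested genes, in each genotype at 24 h (left) and 48 h (right). At 48 h the accessory median is 0.32 in TKO, 0.05 in SKO, 0.29 in STKO and 0.29 in WT cells, and the core and assembly medians are below 0 in all 4 genotypes.

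By genotype, the median 48 h difference of the accessory genes was 0.32 in TKO, 0.05 in SKO, 0.29 in STKO and 0.29 in WT cells. That of the Ndufs and Ndufv genes was -0.20, -0.17, -0.16 and -0.29, and that of the Ndufaf genes -0.24, -0.26, -0.13 and -0.30, in the same order. The median over all genes on these arrays lay between -0.04 and -0.01. Across the 42 genes the 48 h differences of TKO cells correlated with those of STKO cells at r = 0.76 and with those of WT cells at 0.73. Over all genes these pairs had 0.77 and 0.87. SKO cells correlated with WT, TKO and STKO cells at 0.41, 0.49 and 0.65, and over all genes at 0.624, 0.625 and 0.80. STKO cells correlated with WT cells at 0.59, and over all genes at 0.78. Every pair had a lower value over the 42 genes than over all genes. These are descriptions over genes read on the same pairs of arrays, and no p is attached.

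At 24 h 1 of the 42 genes was called, Ndufb3, which is 2.38%, against 16.7% of all genes (7.01% higher and 9.73% lower). It read 11.23, 11.08, 11.30 and 11.36 at 24 h in TKO, SKO, STKO and WT cells, against 10.66, 10.92, 10.83 and 10.65 with DMSO, a rise of 0.48 ± 0.12 (limma, adjusted p = 0.0278). The groups did not overlap, and the call was lost without WT, without TKO or without STKO cells (0 calls each), while without SKO cells 3 genes were called. The share of all probes called in those fits is not given here either. The median difference of the 42 genes was 0.08 at 24 h, against 0.00 over all genes, and 32 of the 42 lay above 0. Without overlap, 6 genes lay above DMSO and 2 below, against 7.62% and 10.5% of all genes.

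The 3 genes with the next lowest p at 24 h missed the threshold, and Ndufb2 among them had a larger difference than Ndufb3. Ndufb2 gave 0.52 ± 0.16 (limma, adjusted p = 0.0547), Ndufa4 0.34 ± 0.10 (limma, adjusted p = 0.0511) and Ndufs4 -0.34 ± 0.11 (limma, adjusted p = 0.0668), and none of the 3 overlapped with DMSO. For Ndufb2, Ndufa7, Ndufb4, Ndufb9 and Ndufb11 the highest 24 h value was that of SKO cells. Ndufb9 read 11.20 at 24 h in SKO cells, against 10.23 with DMSO, and Ndufb4 read 9.64, against 8.37.

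The DMSO arrays are shared by the comparisons at 24 h and 48 h, so their values are given side by side and not correlated. Of the 42 genes 23 lay above DMSO at both times, 9 below at both, 9 above at 24 h and below at 48 h, and 1 below and then above. Compared directly, 48 h against 24 h, 1 gene was called (2.38%, against 10.4% of all genes, 5.31% higher and 5.13% lower), the assembly factor Ndufaf5. It averaged 9.19 ± 0.14 with DMSO, 9.12 ± 0.23 at 24 h and 8.73 ± 0.18 at 48 h (SD, n = 4), and the difference between the DMBA times was -0.38 (limma, adjusted p = 0.0499). The call was lost with any 1 of the 4 genotypes left out (limma, adjusted p = 0.0964 to 0.260). All 7 Ndufaf genes had a lower mean at 48 h than at 24 h, with a median difference of -0.30.

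Whether the DMBA response depended on STING was tested as the response of TKO and WT cells minus that of SKO and STKO cells, averaged over both times, so a positive value is a lower response without STING. In this test 0 of the 42 genes were called by limma, against 6.42% of all genes (2.99% higher and 3.43% lower), and 5 had an unadjusted p under 0.05. The membrane subunit Ndufc2 responded by -0.08 in SKO and 0.14 in STKO cells, against 0.66 in TKO and 0.53 in WT cells, a difference of 0.57 ± 0.15 (limma, adjusted p = 0.0614). Ndufab1 responded by -0.11 in SKO and 0.14 in STKO cells, against 0.63 and 0.53 in TKO and WT cells, also 0.57 ± 0.15 (limma, adjusted p = 0.0617). Ndufb5, a membrane-arm subunit, went the other way. It responded by 0.31 in SKO and 0.26 in STKO cells, against -0.26 in TKO and -0.42 in WT cells, a difference of -0.63 ± 0.17 (limma, adjusted p = 0.0664).

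For the brightest probes of these 3 genes both STING-deficient genotypes stood on one side of both STING-carrying ones. The second probe of Ndufc2 went the other way, at -0.42 ± 0.24 (limma, adjusted p = 0.302). Of the 3 other Ndufab1 probes 2 gave 0.89 and 0.62 and the last -0.17 (limma, adjusted p = 0.0319, 0.0516 and 0.561), while Ndufb5 has a single tested probe. Ndufb6 and Ndufb3 gave 0.50 and 0.38 (limma, adjusted p = 0.0984 and 0.150). Signals without background correction, or with a larger offset, called Ndufc2, Ndufab1 and Ndufb5 (3 genes in each). Without background correction the calls over all 18389 tested probes grew too, to 899 higher and 972 lower, against 536 and 586. The share of all probes called with the larger offset is not given here.

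Whether the response depended on Trex1 was tested as TKO and STKO cells minus SKO and WT cells. In this test 0 of the 42 genes and 0% of all genes were called by limma, and 1 complex I gene, the dim Ndufb11, had an unadjusted p under 0.05. It responded by -0.18 in TKO and 0.03 in STKO cells, against 0.78 in SKO and 0.89 in WT cells, a difference of -0.91 ± 0.35 (limma, adjusted p = 1). Every other complex I gene lay between -0.37 and 0.24 in this test.

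Averaged over the treatments, no complex I level passed the test for either genotype difference. In cells lacking STING, 0 of 42 genes were called by limma against 10.4% of all genes (4.73% higher and 5.65% lower), with 3 at an unadjusted p under 0.05. Ndufb6 averaged 13.28 in SKO and 13.56 in STKO cells, against 13.85 in TKO and 13.79 in WT cells, a difference of -0.40 ± 0.11 (limma, adjusted p = 0.0538). With DMSO alone its 4 values lay within 13.22 to 13.33. In cells lacking Trex1, 0 of 42 were called by limma against 2.7% of all genes (1.01% higher and 1.7% lower), with 1 at an unadjusted p under 0.05. That gene was Ndufa6, a subunit of the matrix arm, at 12.26 in TKO and 12.24 in STKO cells, against 12.21 in SKO and 12.68 in WT cells (-0.19 ± 0.08, limma, adjusted p = 0.353). WT cells stood apart from the other 3 genotypes there.

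The genes that encode complex I are short and scattered. They lie on 17 chromosomes, at most 6 on any of them, and their median genomic length was 7542 bases (500 to 106064), against 22245 over all tested genes. Across the 42 genes length and the 48 h difference had a Spearman correlation of -0.16, and across all tested genes -0.24. Both are descriptions over genes, which are not independent replicates.

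Promoters of 39 of the 42 genes were read from RefSeq (GRCm38.p6), as the window from 250 bases before to 50 after the start of the gene, and searched on both strands. Such genes are known for sites of NRF1, of ETS-type factors such as GABP, and of YY1. The NRF1 consensus was present in 8 of 39 complex I windows (20.5%), against 5.19% of the 27025 genes with a window. Those 27025 genes were not filtered for detection on the array, unlike the 39. This share and the ones below therefore compare unlike sets. The YY1 letters AAGATGG were present in 8 (20.5%, against 7.28%), and the ETS letters CCGGAAG in 6 (15.4%, against 9.93%). The antioxidant response letters TGACNNNGC, known for Nfe2l2, were present in 8 (20.5%, against 14.0%). The letters GCGTG, the core of the sites bound by the aryl hydrocarbon receptor, were present in 21 (53.8%, against 35.2%).

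Between the called genes the letters were unevenly placed. TGACNNNGC occurred in 3 of the 7 genes that rose (Ndufa1, Ndufa7 and Ndufa11) and in 0 of the 4 that fell. AAGATGG occurred in 0 of the 7 and in 3 of the 4 (Ndufb8, Ndufs4 and Ndufs6), just after the start. Each of these 3 genes had another probe of the other sign, and none was called with all detected probes averaged. The NRF1 consensus occurred in 1 of the 7 (Ndufa11) and 2 of the 4 (Ndufs6 and Ndufaf5), and GCGTG in 4 of the 7 and 2 of the 4. These counts are descriptions with no test, and a match is not a bound site.

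The 200 bases before the start are shown for the called genes with an NRF1, ETS, YY1 or antioxidant match in that stretch, so that the letters can be read in place. Capitals mark every match to the 5 motifs. In Ndufa7 the aryl hydrocarbon receptor letters overlap the antioxidant match, in Ndufa11 they follow the NRF1 match after a single base, and in Ndufs6 the NRF1 match lies next to the start. The stretches are chr17:33824372-33824571 (plus strand) for Ndufa7, chr17:56717562-56717761 (plus strand) for Ndufa11, chrX:37191239-37191438 (minus strand) for Ndufa1 and chr13:73328483-73328682 (minus strand) for Ndufs6, each written 5′ to 3′ along the gene.
Ndufa7: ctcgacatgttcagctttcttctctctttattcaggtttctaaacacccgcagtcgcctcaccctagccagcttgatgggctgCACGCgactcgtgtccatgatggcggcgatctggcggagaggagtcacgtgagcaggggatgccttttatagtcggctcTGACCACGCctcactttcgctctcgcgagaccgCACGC
Ndufa11: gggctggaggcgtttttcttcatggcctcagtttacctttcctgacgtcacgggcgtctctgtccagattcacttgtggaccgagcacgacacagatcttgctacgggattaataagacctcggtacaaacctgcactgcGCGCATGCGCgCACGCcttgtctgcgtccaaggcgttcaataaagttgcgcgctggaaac
Ndufa1: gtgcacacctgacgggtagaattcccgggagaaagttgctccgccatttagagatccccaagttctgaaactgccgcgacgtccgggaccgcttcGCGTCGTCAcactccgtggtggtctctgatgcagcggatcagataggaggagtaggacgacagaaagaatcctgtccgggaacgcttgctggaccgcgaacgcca
Ndufs6: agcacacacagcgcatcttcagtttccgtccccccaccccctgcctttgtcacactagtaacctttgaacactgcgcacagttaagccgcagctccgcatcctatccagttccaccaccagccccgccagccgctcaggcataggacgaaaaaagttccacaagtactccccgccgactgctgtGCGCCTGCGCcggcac

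Genes of the same organelle outside the family were counted in the same test, in which 19.2% of all genes rose and 21.9% fell. Of 9 tested assembly factors of complex I with other symbols 0 rose and 2 fell (22.2%) at 48 h, Ecsit by 0.53 and Dmac1 by 0.36 (limma, adjusted p = 0.0155 and 0.0259). Of 7 complex II genes 2 rose (28.6%), both assembly factors, Sdhaf1 at 0.90 and Sdhaf4 at 0.40 (limma, adjusted p = 0.00392 and 0.0108). Of 11 complex III genes 1 rose, Uqcrh, and 1 fell, Bcs1l (9.09% each). Of 12 complex IV genes 4 rose and 1 fell (33.3% and 8.33%), led by Cox6b2, a testis-type isoform, at 5.02 (limma, adjusted p = 1.71e-05). Of 16 ATP synthase genes 1 rose, Atp5l, and 1 fell, Atp5c1 (6.25% each). No list was tested against the array. The median differences of complexes II, III and IV and of ATP synthase were 0.25, 0.08, 0.21 and 0.10, against 0.03 for the 42 Nduf genes.

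**Figure D5:**
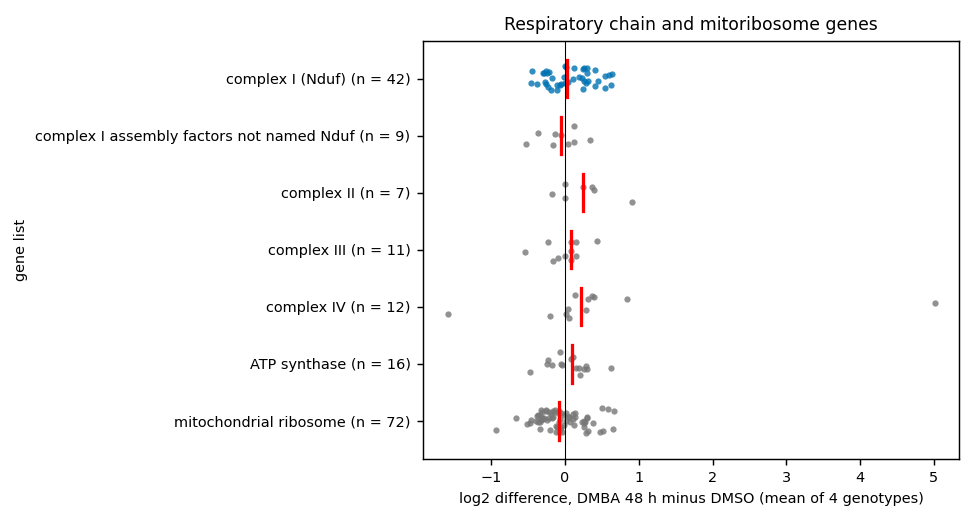
Log2 difference, DMBA 48 h minus DMSO as the mean of the 4 genotypes, of each tested nuclear gene of complex I, of the other respiratory complexes and of the mitochondrial ribosome, with a red bar at the median of each list. The Nduf genes spread on both sides of 0, and Cox6b2 and Cox6a2 of complex IV lie farthest out at 5.02 and -1.59.

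The mitochondrial ribosome, which translates the subunits of the respiratory chain that mitochondrial DNA encodes, had 6 of its 72 genes risen and 14 fallen (8.33% and 19.4%, against 19.2% and 21.9% of all genes), with a median of -0.08. Of 12 genes used as measures of mitochondrial content 0 rose and 3 fell (Hspa9, Vdac1 and Vdac3, or 25%, against 21.9% of all genes), with a median of -0.03. Of 12 glycolytic genes 0 rose and 3 fell (Pfkp, Tpi1 and Ldha, also 25%). Of 11 regulators of mitochondrial genes 2 rose and 5 fell (18.2% and 45.5%, against 19.2% and 21.9%). Esrra, a nuclear receptor that activates respiratory genes, rose by 1.10 (limma, adjusted p = 0.00206) and Nfe2l2, the factor of antioxidant response sites, by 0.40 (limma, adjusted p = 0.0484). The coactivators Ppargc1b and Pprc1 fell by 1.08 and 0.56 (limma, adjusted p = 0.000565 and 0.00539). Among the factors whose letters were searched, and named after their values were seen, Nrf1 fell by 0.40 and Gabpa by 0.52 (limma, adjusted p = 0.0369 and 0.0269).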

How the data were processed

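Total RNA was amplified to biotin-labelled cRNA and hybridised to Illumina mouse bead arrays, 1 array for each of 4 genotypes and 3 treatments, per the labels' protocols. The deposited signal is an intensity on a linear scale that was not normalized between arrays, per the file headers and the values. The deposited detection score runs against its name (Spearman correlation with the signal 0.98 to 0.99), so 1 minus it was used as the detection p. The authors' value table is in log2 units and matches quantile-normalized signals centred on the median of each probe to within 0.0062. The software and probe build behind it are not named.

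Background correction (normexp from the detection p, offset 16), quantile normalization and the log2 transform were done by neqc in limma 3.58.1 (R 4.3.3). The 18389 probes detected at p under 0.01 on 2 or more of the 12 arrays were tested. The brightest probe on average stands for its gene. Of the array's probes 34885 carry 1 symbol, 18 several and 10378 none, and all 42 complex I genes matched RefSeq by Entrez ID. Treatments were compared with genotype as a block and genotypes with treatment as a block (lmFit and eBayes of limma, with 6 residual degrees of freedom), and dependence on STING or Trex1 by an interaction with treatment (4 residual degrees of freedom), 2-sided. Values after ± are limma standard errors unless given as SD. The number of arrays limits the precision. The file headers name no chip or scan, so no batch was fitted. The fit was tested on simulated data. Named genes are the called ones, the largest 2 of each class and, where none was called, those with the 5 smallest p; further genes named for their pattern were chosen after their values were seen. Alternatives covered the normalization, offset, filter, probe choice, variance model, block and each genotype or treatment left out. The genes and lists were chosen with earlier results of these data known.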

Additional observations from a re-analysis of the deposited data

Results flagged for a closer look

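A further probe of Ndufab1 had a DMBA response that differed with STING, 0.887 ± 0.171 as TKO and WT minus SKO and STKO (limma, adjusted p = 0.0319). It read 11.87, 12.09 and 12.02 in SKO and 12.05, 12.44 and 12.02 in STKO cells under DMSO, 24 h and 48 h, against 11.65, 12.66 and 12.62 in TKO and 11.41, 12.41 and 12.71 in WT cells. A further probe of Ndufs4 differed in the same test by -0.718 ± 0.159 (limma, adjusted p = 0.0434). It read 11.66, 12.16 and 11.74 in SKO and 11.76, 11.86 and 11.70 in STKO cells, against 11.99, 11.18 and 11.58 in TKO and 11.95, 11.31 and 11.55 in WT cells. The brightest probes of both genes did not pass this test.

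The probe named for ND4L, a core subunit encoded by mitochondrial DNA and not among the Nduf genes, differed by -1.33 ± 0.198 (limma, adjusted p = 0.0187). It read 8.63, 9.82 and 10.28 in SKO and 8.52, 9.22 and 9.71 in STKO cells under DMSO, 24 h and 48 h, against 8.32, 8.04 and 8.44 in TKO and 8.51, 8.29 and 8.29 in WT cells. The probes named for ND1, ND4 and ND5, also encoded by mitochondrial DNA, did not pass this test. They gave -0.42 ± 0.19, -0.30 ± 0.16 and 0.37 ± 0.16 (limma, adjusted p = 0.199, 0.261 and 0.184).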

How the results depend on the processing

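The treatment comparisons were paired within genotype, and the labels give no replicate numbers for any further pairing. The direction of every called gene held under each alternative run, with the call kept in 143 cases and lost in 52. The count of called complex I genes at 24 h (1) was 4 with quantile normalization alone, with the authors' values, with an offset of 50 and with a trended robust variance, 3 with probes detected on all 12 arrays or genotype as a random block, and 2 with no filter or with the mean of probes, which moved the median to 0.1176. With 1 genotype left out it was 0 to 3, and the median 0.0767 to 0.1047. At 48 h (11) it was 4 to 15 with 1 genotype left out. Between the DMBA times (1) it was 2 with quantile normalization alone, the authors' values, an offset of 50, no filter or all 12 arrays, 0 with median scaling, 3 with the trended variance and 0 to 1 with 1 genotype left out. For the dependence on STING (0) it was 3 with quantile normalization alone, the authors' values, an offset of 50 or all 12 arrays, 1 with median scaling and 4 with the trended variance. For loss of STING (0) it was 2 with quantile normalization alone, the authors' values or the trended variance, 1 with an offset of 50, no filter or all 12 arrays, and 0 to 1 with 1 treatment left out. The median Trex1 dependence (0.04) was -0.0198 at 24 h alone and 0.1123 at 48 h alone. In fits added after seeing the data, TKO and WT cells alone gave 6 calls at 24 h, 14 at 48 h and 3 between the times, and SKO and STKO cells alone 0, 0 and 0. The share of all probes called in these added fits is not given here. Their counts are therefore not read as a difference between the pairs of genotypes. The cause of the changes in count between settings was not tested. Quantile normalization alone called 1364 higher and 1779 lower of all probes at 24 h, against 1251 and 1625. Between the times it called 1009 and 1052, against 961 and 958. For STING dependence it called 899 and 972, against 536 and 586, and for loss of STING 907 and 1006, against 868 and 924. Apart from this setting and median scaling, counts over all probes are not given here. The changed counts are not read as results about complex I. Median scaling split all 48 h calls as 4152 higher and 3076 lower probes, against 3517 and 3760, and split those between the times as 1242 and 556, against 961 and 958, those for STING dependence as 416 and 945, against 536 and 586, and those for loss of STING as 614 and 1034, against 868 and 924.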

Other observations

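The array also carries probes named for core subunits that mitochondrial DNA encodes. ND1, next to the ubiquinone site, read 14.39, 14.51, 14.62 and 14.60 at 48 h in TKO, SKO, STKO and WT cells, against 14.19, 13.87, 14.10 and 14.00 with DMSO, and rose by 0.49 ± 0.16 (limma, adjusted p = 0.0328). ND4, a proton-pumping subunit, gave 0.19 ± 0.13 (limma, adjusted p = 0.281), the dim ND5 -0.03 ± 0.24 (limma, adjusted p = 0.944) and ND4L 0.69 ± 0.27 (limma, adjusted p = 0.0717). ND6 was detected on 0 arrays.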
